A study of Mus musculus with 6 samples.

Results

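Ribosomal proteins and translation factors, the proteins that build the cytosolic ribosome and those that start and drive protein synthesis on it, were followed in the striatum of 12-month-old Huntington's disease model mice. Members were the probe sets annotated with exactly 1 gene symbol that named a ribosomal protein of the large (Rpl, Rplp) or small (Rps, Rpsa) subunit, an initiation factor (Eif1 to Eif6) or an elongation factor (Eef1, Eef2). Kinases named Rps6k and the gene Eif2s3y were left out by that choice. This gave 114 probe sets for 83 genes, of 12422 probe sets and 8251 genes measured. The ribosomal proteins made up 49 probe sets and 35 genes, 17 of the large and 18 of the small subunit, among them the paralogs Rpl7l1, Rpl39l, Rps4l and Rps27l. The factors made up 65 probe sets and 48 genes, 40 for initiation and 8 for elongation. One of the 8, Eef1akmt1, is by its name a methyltransferase that acts on eEF1A rather than a factor. The counts also hold regulators of factors: the kinase Eef2k among the 8, and 4 eIF2 kinases and 3 genes of 4E binding and transport among the 40. A further 39 probe sets name a ribosomal protein among several symbols and 1 names a factor in that way, so they are no members.

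Initiation factors bring the initiator tRNA and a messenger RNA to the small subunit, the large subunit then joins, and elongation factors deliver each aminoacyl tRNA and move the ribosome along. Ribosomal protein messengers, and those of several elongation factors, begin with a run of pyrimidines through which growth signalling by mTOR sets their translation together. Phosphorylation of eIF2 under stress lowers initiation in general, and eIF4E, which binds the cap, is held in check by the 4E binding proteins.

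The arrays measured total RNA from whole striatum, the forebrain region most affected in Huntington's disease. They came from 3 Hdh4/Q80 mice (replicates 7, 8 and 9), whose own huntingtin gene holds an expanded CAG repeat, and from 3 wild-type littermates (replicates 4, 5 and 6). All were female, C57BL/6 and 12 months old. The labels class Hdh4/Q80 as transgenic, the sources used here do not give zygosity, no batch is labelled, and each array was taken as 1 mouse because the design counts 3 mice per group. The arrays do not read the repeat, so they do not check the genotype labels. In whole tissue, fewer cells of a type and less RNA per cell cannot be told apart.

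Values are log2 signals, and a difference is Hdh4/Q80 minus wild type on that scale. Signal depends on the probes, so a brighter gene is not shown to have more messenger. Array medians lay between 7.10 and 7.13, with no missing value, and the number of arrays limits the precision. Of the Hdh4/Q80 mice, replicate 8 stood apart. Over all probe sets it correlated with the other arrays at 0.992 on average, against 0.995 to 0.997 for the other mice, and its deviations from the probe set means had an SD of 0.179, against 0.072 to 0.119. Differences are therefore given with and without this mouse, in the text or in the plot of differences by gene. Of the markers of spiny projection neurons, the main neurons of the striatum, 6 of 11 were measured, with summed log2 signals of 56.6 to 57.3 in Hdh4/Q80 mice and 56.2 to 57.8 in wild type. All 6 microglia markers had a mean below wild type, with sums of 51.5 to 53.2 in Hdh4/Q80 mice and 53.7 to 54.1 in wild type. Of these, C1qb had -0.35, C1qc -0.32, C1qa -0.28, Tyrobp -0.21, Csf1r -0.11 and Cx3cr1 -0.01. Without replicate 8 they had, in that order, -0.19, -0.19, -0.17, -0.12, -0.01 and -0.05. The 5 of 6 oligodendrocyte markers measured summed to 46.5 to 46.7 in Hdh4/Q80 mice and 46.8 to 47.3 in wild type, and the 2 of 4 blood markers to 19.2 to 19.4 in Hdh4/Q80 mice and 19.5 to 19.9 in wild type. Of the oligodendrocyte markers, Mobp had -0.31, Mal -0.23 and Mog -0.03, and Mbp 0.01 and Cnp 0.12. Without replicate 8 they had, in that order, -0.27, -0.20, -0.06, -0.05 and 0.18. Of the blood markers, Hba-a1 had -0.43 and Alas2 -0.01 (-0.40 and 0.00 without it). For single genes, all Hdh4/Q80 mice lay below all wild-type mice in 5.22% of all genes and above in 5.87%. By the sums, the groups did not overlap for microglia, oligodendrocytes and blood. They overlapped for choroid plexus (3 of 6 measured, 21.0 to 26.5 in Hdh4/Q80 mice and 20.8 to 24.0 in wild type) and for astrocytes (5 of 6, 45.7 to 46.6 in Hdh4/Q80 mice and 46.3 to 47.1 in wild type). They also overlapped for cortex (3 of 6, 19.7 to 21.5 in Hdh4/Q80 mice and 20.4 to 22.8 in wild type) and endothelium (4 of 5, 30.5 to 30.7 in Hdh4/Q80 mice and 30.4 to 30.8 in wild type). The actin control probe sets for the 3′ and 5′ ends, a sign of RNA integrity, differed by 0.63, 0.86 and 0.85 in Hdh4/Q80 mice and by 0.73, 0.57 and 0.62 in wild type. For Gapdh this gap was 0.12, 0.21 and 0.33 in Hdh4/Q80 mice and 0.26, 0.22 and 0.26 in wild type. The part of these values in the members' differences was not tested.

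No member passed the test between the genotypes. In limma's fit over all probe sets with Benjamini-Hochberg adjustment, 0 of the 114 members and 0 of 12422 probe sets (0.00%) had an adjusted p under 0.05, and the smallest adjusted p was 0.857; 634 of all probe sets had an unadjusted p under 0.05. Each gene is given from here on by its brightest probe set unless another is named. At an unadjusted p under 0.05, limma marked 2 of the 35 ribosomal protein genes and 2 of the 48 factor genes, against 4.30% of all genes. Both ribosomal protein genes, Rps4l and Rpl10a, were lower in Hdh4/Q80 striata, where the share of all genes marked as lower was 2.13%. Of the factors, Eif5b was lower and Eif4e higher, with 2.17% of all genes marked as higher. The 95% interval of the difference lay within a 1.5-fold change in either direction for 34 of the 35 ribosomal protein genes and for 48 of the 48 factor genes, as it did for 8176 of all 8251 genes.

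The differences as a whole leaned below 0 for the ribosomal proteins. Their median was -0.09, with 26 of 35 genes below 0, against a median of -0.01 and 53.3% below 0 over all genes. The factors had a median of -0.01 with 27 of 48 below 0, and their median turned to 0.004 under cyclic loess. The choice of probe set bears on the first value. Over all 49 ribosomal protein probe sets the median was -0.03 with 29 below 0, where 51.1% of all probe sets were below 0, and it was -0.034 where a gene's probe sets were averaged. The 39 probe sets that name a ribosomal protein among several symbols had a median of -0.05 with 31 below 0. Without Hdh4/Q80 replicate 8 these 39 had -0.01 with 23 below 0, and the 49 had 0.00 with 24 below 0. Renewed quantile normalization and cyclic loess brought the ribosomal protein median to -0.034 and -0.036. Without Hdh4/Q80 replicate 8 the median was -0.02 with 19 of 35 below 0, and 0.01 with 23 of 48 below 0 for the factors, against 48.6% of all genes.

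**Figure D1:**
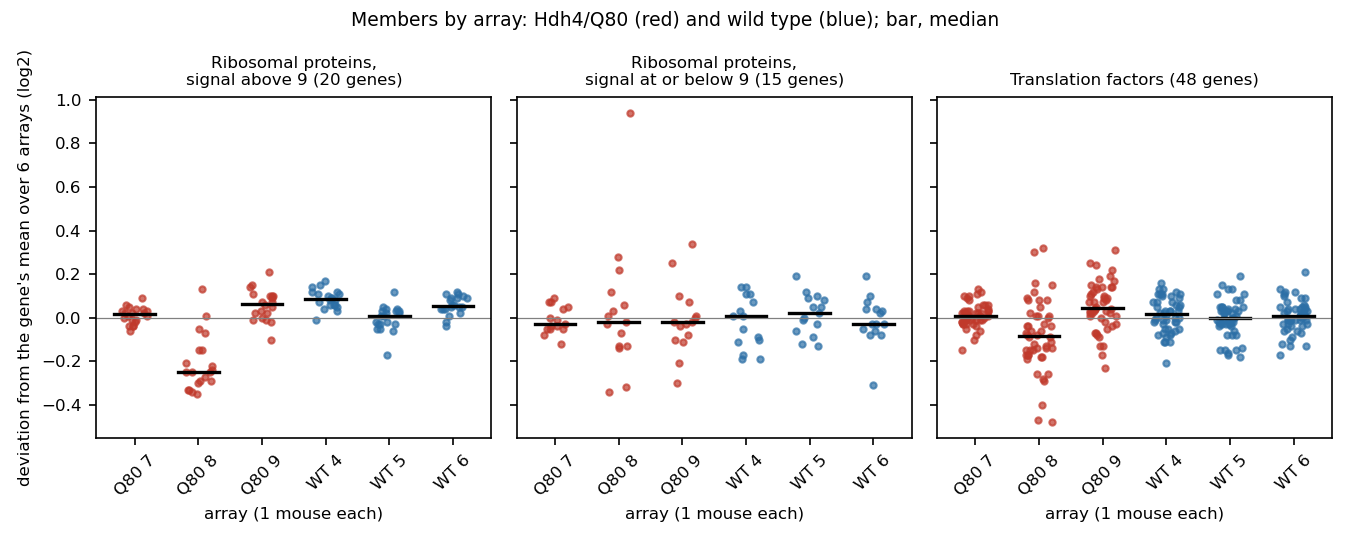
Deviation of each member gene from its own mean over the 6 arrays (log2, vertical axis) for each mouse, Hdh4/Q80 in red and wild type in blue, with the median as a bar. The median bar of the 20 ribosomal protein genes with a signal above 9 sits at -0.25 for Hdh4/Q80 replicate 8 and between 0.01 and 0.09 for the other 5 mice.

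The lean lay with the bright genes and with 1 mouse. A split at a mean signal of 9, chosen after the values were seen, left 20 ribosomal protein genes above it. These had a median difference of -0.12 and 18 of 20 below 0. Their median deviation from the gene mean was 0.01, -0.25 and 0.06 in Hdh4/Q80 replicates 7, 8 and 9, and 0.09, 0.01 and 0.05 in wild type. Only replicate 8 was far from 0. It was the lowest of the 6 mice for 18 of these 20 genes, the exceptions being Rps24 and Rps27, and for 21 of all 35 ribosomal protein genes and 27 of 48 factor genes, where the share of all genes was 36.0%. Without it, the 20 genes had a median of -0.02 with 11 below 0. The 15 ribosomal protein genes at or below 9, with means of 5.05 to 8.86, had a median of 0.00, and replicate 8 was lowest for 3 of them. Whether their probe sets read the messengers as well as those of the bright genes was not tested.

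Bright genes outside the group showed the same direction. Of the 1204 other genes with a signal above 9, 68.4% were below 0, with a median of -0.04, and replicate 8 was lowest for 60.7% of them with a median deviation of -0.13. Without that mouse 50.5% were below 0. Of the other genes at or below 9, 50.5% were below 0 with all mice, and replicate 8 was lowest for 31.5%. The 13 factor genes above 9 had a median of -0.06 with 11 below 0 and a median deviation of -0.14 in replicate 8. The correlation across genes between mean signal and difference was -0.429 for the 35 ribosomal proteins, -0.328 for the 48 factors and -0.221 for the other 8168 genes, and without replicate 8 it was -0.108, -0.221 and -0.062. These are descriptions over genes that share the same 6 arrays.

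**Figure D2:**
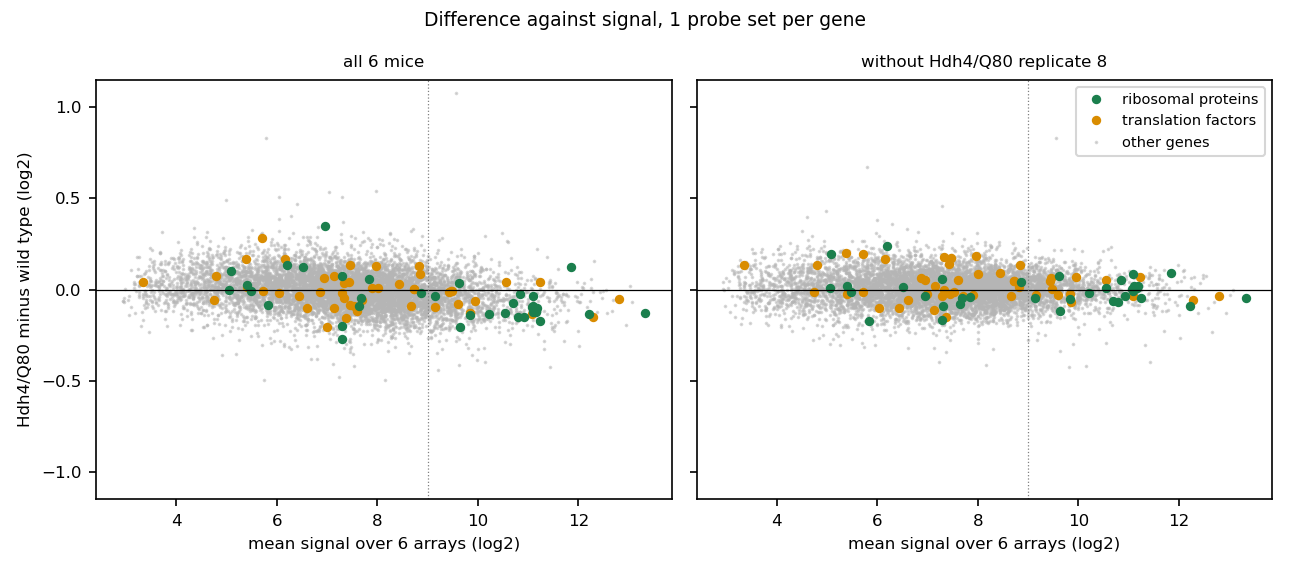
Hdh4/Q80 minus wild type (log2, vertical axis) against mean signal (log2, horizontal axis), 1 point per gene, with all mice on the left and without Hdh4/Q80 replicate 8 on the right; the dotted line marks a signal of 9. With all mice 18 of the 20 ribosomal protein genes above 9 lie below 0, and without replicate 8 it is 11.

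Bright ribosomal protein genes also varied together from mouse to mouse. Over the 6 arrays the median correlation between pairs of the 20 genes was 0.857 (190 pairs), and it was 0.445 over the 5 arrays without replicate 8. The 1204 other genes above 9 gave 0.355 and 0.173, the 13 factors above 9 gave 0.615 and 0.213, and the 15 dimmer ribosomal proteins gave -0.0812 and -0.0541. All pairs share the arrays and so their scaling, and 5 or 6 points set each value.

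The promoters of the members were read from RefSeq (GRCm38.p6) for words that transcription factors are known to bind and for pyrimidine words. Entries of 300 bases, 250 before and 50 after an annotated start, were found for 68 of the 83 members. The word CCGGAAG, bound by ETS family factors, occurred on either strand in 32.4% of 37 ribosomal protein windows and 30.9% of 55 factor windows, against 11.6% of the windows of protein-coding genes and 8.86% of all windows. For the bright ribosomal protein genes, those above 9, it was in 38.1% of 21 windows. Several windows can belong to 1 gene and overlap, so the shares are a description. The 6 ribosomal protein genes below, all with a signal above 9, hold the word within the 100 bases before an annotated start, printed 5′ to 3′ on the gene's strand with the match in capitals (CTTCCGG is the same word on the other strand). They are shown so that the place of the word can be seen. The interval and strand are given after each name.
Rpl19, chr11:98026610-98026709, plus strand: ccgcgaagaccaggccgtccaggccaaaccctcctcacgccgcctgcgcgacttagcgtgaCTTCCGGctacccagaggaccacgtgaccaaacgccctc
Rpl41, chr10:128549169-128549268, minus strand: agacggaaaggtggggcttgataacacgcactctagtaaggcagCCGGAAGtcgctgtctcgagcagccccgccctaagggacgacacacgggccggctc
Rps10, chr17:27635245-27635344, minus strand: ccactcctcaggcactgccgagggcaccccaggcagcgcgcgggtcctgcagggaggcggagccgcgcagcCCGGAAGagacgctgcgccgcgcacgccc
Rps18, chr17:33955666-33955765, minus strand: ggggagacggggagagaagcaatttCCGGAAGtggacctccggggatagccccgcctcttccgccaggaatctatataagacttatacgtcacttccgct
Rps3a1, chr3:86142669-86142768, minus strand: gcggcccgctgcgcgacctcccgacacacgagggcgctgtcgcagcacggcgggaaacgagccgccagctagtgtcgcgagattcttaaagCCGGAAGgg
Rps7, chr12:28635954-28636053, minus strand: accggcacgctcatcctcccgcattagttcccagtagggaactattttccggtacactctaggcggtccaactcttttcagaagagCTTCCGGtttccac
The match begins between 75 bases (Rps18) and 9 bases (Rps3a1) before the start. Of the other words searched on both strands, GGGCGG, the core of the GC box, was in 56.8% of ribosomal protein windows, 67.3% of factor windows and 46.2% of protein-coding windows. AAGATGGC, a core of YY1 sites, was in 18.9%, 7.27% and 3.05%, in that order, and in 4.76% of the windows of the bright ribosomal protein genes. TATAAA, the TATA box, was in 10.8%, 5.45% and 12.6%. The pyrimidine words CTCTTTC and CTTTTCC were in 21.6% and 13.5% of ribosomal protein windows, 12.7% and 9.09% of factor windows, and 7.73% and 7.92% of protein-coding windows. They were counted on either strand and anywhere in the window, so these shares do not measure a run of pyrimidines at the messenger's start. No word contains another. Median GC content was 57.7% in ribosomal protein windows, 62.0% in factor windows and 56.3% in protein-coding windows.

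In the large subunit, 13 of 17 genes were below 0 and the median was -0.09, where 53.3% of all genes were below 0. Without replicate 8 it was 10 of 17 genes with a median of -0.03, where 48.6% of all genes were below 0. Rpl10a, the protein of the mobile stalk on the side where spent tRNA leaves the ribosome, had 9.62, 9.36 and 9.62 in Hdh4/Q80 striata, against 9.70, 9.76 and 9.76 in wild type. All Hdh4/Q80 mice lay below all wild-type mice, a pattern found for 4 of the 35 ribosomal protein genes (Rpl10a, Rps27l, Rps28 and Rpsa) and 5.22% of all genes. The difference was -0.20 (SE 0.0846, limma's adjusted p = 0.857), and -0.12 without replicate 8. A second Rpl10a probe set, whose suffix marks it as able to bind related transcripts, gave 8.27, 8.29 and 8.59 in Hdh4/Q80 mice and 8.23, 8.27 and 8.25 in wild type, a difference of 0.14 in the other direction (0.18 without replicate 8).

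Rpl41, a very short and basic protein, is the brightest member, on a probe set that can bind related transcripts by its suffix. Rpl41 had 13.34, 13.11 and 13.36 in Hdh4/Q80 striata, against 13.42, 13.35 and 13.42 in wild type, a difference of -0.13 ± 0.0823 (SE). Replicate 8 was lowest, and without it the difference was -0.05. Rplp0, which anchors the acidic stalk that recruits elongation factors and often serves as a reference gene, had 10.54, 10.22 and 10.70 in Hdh4/Q80 mice, against 10.61, 10.59 and 10.64 in wild type. Hdh4/Q80 replicates 7 and 8 were below and replicate 9 above all wild-type mice, and the difference of -0.13 was 0.01 without replicate 8.

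Rpl32 had the widest interval of the group. Its signals were 6.84, 7.89 and 6.66 in Hdh4/Q80 mice, against 6.87, 6.83 and 6.65 in wild type. The high value of replicate 8 alone set the difference of 0.35 (95% interval -0.23 to 0.92), which was -0.03 without that mouse. Its probe set carries a suffix for fewer specific probes. Rpl22, an RNA-binding protein that cells can do without because its paralog stands in for it, had 2 probe sets of the same mean signal to 2 decimals, 7.64, which gave differences of -0.09 and 0.06 (-0.08 and 0.04 without replicate 8). On the second all Hdh4/Q80 mice were above all wild-type mice, so its sign rests on the choice of probe set. Rpl13a, known for another role in silencing inflammatory messengers, had -0.05 with and without that mouse. Rpl7 gave -0.08 on its brightest probe set, which can bind related transcripts by its suffix, and 0.15 on the other (-0.06 and 0.11 without replicate 8). Rpl38, linked in mice to the translation of Hox messengers, had 6.29, 6.07 and 6.45 in Hdh4/Q80 mice, against 6.02, 6.15 and 6.24 in wild type, a difference of 0.14 that was 0.24 without replicate 8. The groups overlapped. Both Rpl38 probe sets carry a suffix, this one for fewer specific probes, and the dimmer one gave 0.02 with and without that mouse.

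In the small subunit, 13 of 18 genes were below 0 and the median was -0.06, where 53.3% of all genes were below 0. Without replicate 8 it was 9 of 18 genes with a median of 0.00, where 48.6% of all genes were below 0. Rps4l, a paralog of the X-linked Rps4x, had 7.33, 6.95 and 7.18 in Hdh4/Q80 striata, against 7.32, 7.48 and 7.48 in wild type. The groups overlapped, by 1 mouse of each. The difference was -0.27 (SE 0.102, limma's adjusted p = 0.857), and -0.17 without replicate 8. The second Rps4l probe set had 6.02, 6.01 and 6.14 in Hdh4/Q80 mice, against 5.79, 5.90 and 5.85 in wild type. There all Hdh4/Q80 mice were above all wild-type mice, with a difference of 0.21 (limma's adjusted p = 0.857), and 0.23 without replicate 8. One gene thus gave both signs on probe sets that each had an unadjusted p under 0.05. The brighter one can bind related transcripts by its suffix. Rps4x itself had a difference of -0.02 on its brightest probe set, and its 4 others gave 0.00 to 0.12; without replicate 8 these were 0.05 and -0.07 to 0.10.

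Rps28 was measured by 3 probe sets, all lower in Hdh4/Q80 mice, with differences of -0.31, -0.18 and -0.13 that were -0.06, -0.07 and -0.09 without replicate 8. By their suffixes, the one at -0.31 has fewer specific probes, and the one at -0.13, the brightest, can bind related transcripts. The brightest had 12.17, 12.07 and 12.20 in Hdh4/Q80 mice, against 12.31, 12.26 and 12.27 in wild type. The groups did not overlap, and the difference of -0.13 had an SE of 0.069 and an adjusted p of 0.857 in limma. Rps27l, a paralog of Rps27 induced by p53, had 7.35, 6.98 and 7.27 in Hdh4/Q80 mice, against 7.41, 7.42 and 7.37 in wild type. Its probe set carries a suffix for fewer specific probes. Again the groups did not overlap, with a difference of -0.20 that was -0.09 without replicate 8, while Rps27 itself had -0.03, and -0.05 without that mouse. Rpsa, also known as the laminin receptor, had 9.86, 9.59 and 9.87 in Hdh4/Q80 mice and 9.97, 9.87 and 9.91 in wild type, with groups that separate only past the second decimal. Its difference was -0.14, and -0.05 without replicate 8.

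Rps10, a protein of the head of the small subunit, had 10.83, 10.56 and 10.78 in Hdh4/Q80 striata, against 10.90, 10.80 and 10.90 in wild type. Its difference of -0.15 was -0.07 without replicate 8, and replicate 7 lay among the wild-type mice. Rps3, also an enzyme of DNA repair, had -0.10, and 0.00 without replicate 8. Rps24, which with Rps19 is needed to mature the small subunit's RNA, ran the other way with 11.79, 11.97 and 11.96 in Hdh4/Q80 mice, against 11.87, 11.67 and 11.80 in wild type. The groups overlapped and the difference was 0.12 ± 0.0823 (SE), and 0.09 without replicate 8. This probe set carries a suffix for fewer specific probes, and a dimmer Rps24 probe set without one gave 0.04 (0.01 without replicate 8). Rps19 had -0.02, Rps20 0.03 and Rps15 0.10, and without replicate 8 they had 0.04, 0.02 and 0.19. Rps20 and Rps15 were dim, with mean signals of 5.41 and 5.09.

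**Figure D3:**
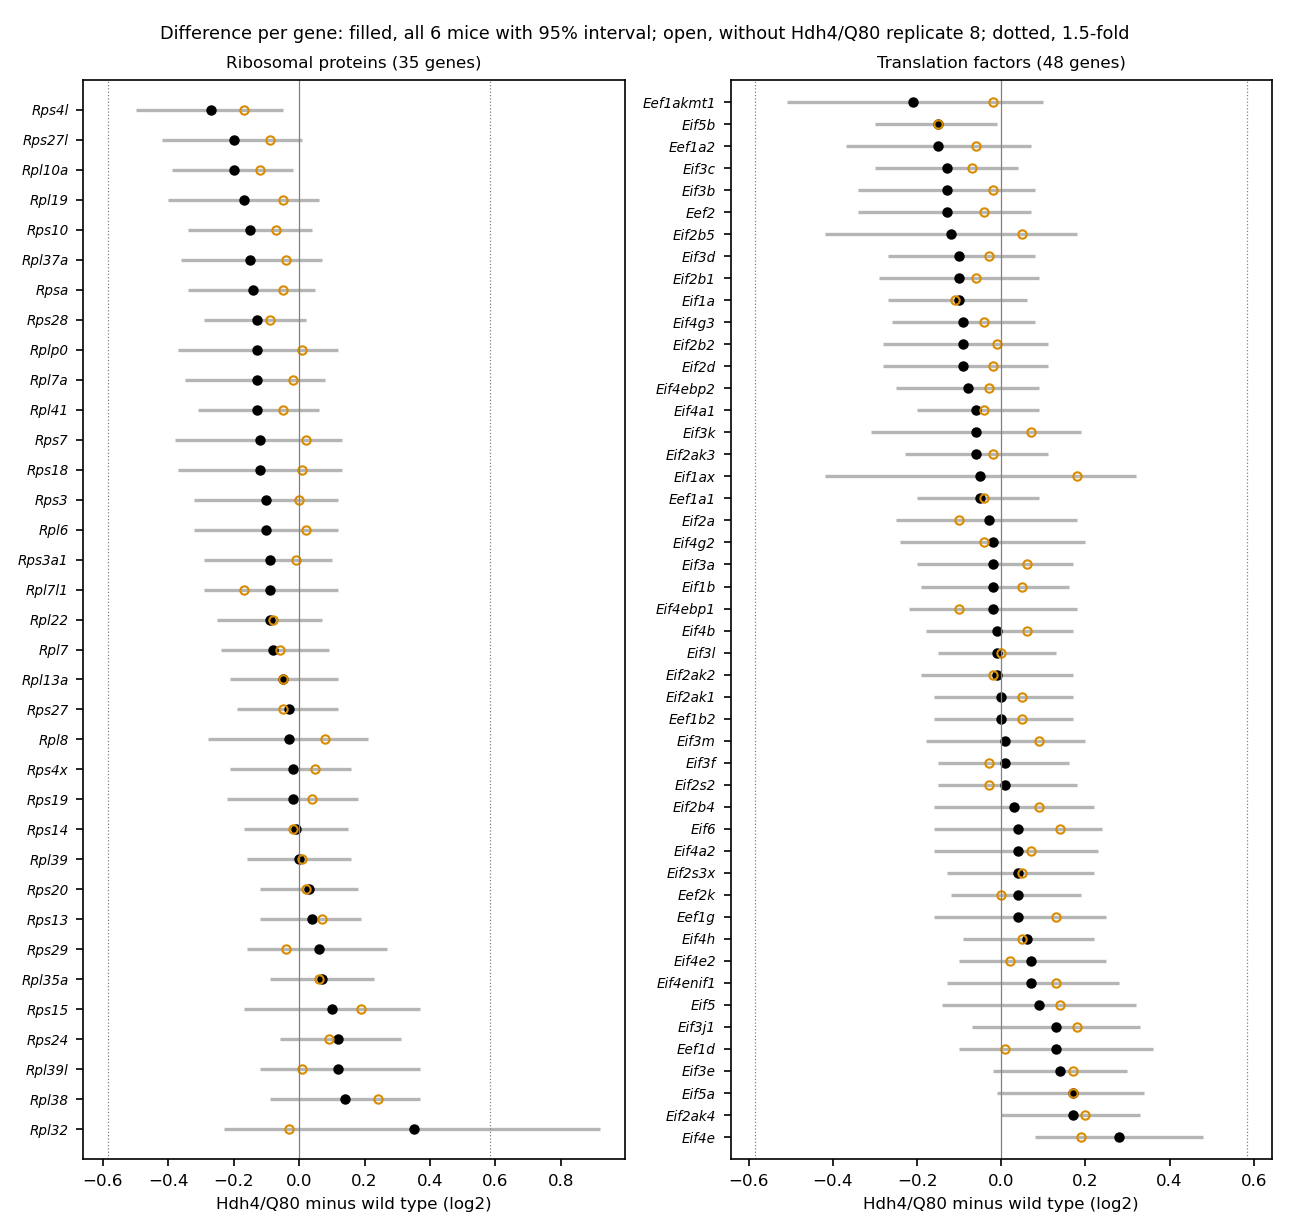
Hdh4/Q80 minus wild type (log2) for each member gene, ribosomal proteins on the left and factors on the right, ordered by the difference; filled points are all 6 mice with the 95% interval, open points leave out Hdh4/Q80 replicate 8, and dotted lines mark a 1.5-fold change. Only the interval of Rpl32 crosses a dotted line.

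Among the initiation factors, 23 of 40 genes were below 0 and the median was -0.01. Without replicate 8 it was 18 of 40 genes with a median of 0.03. The eIF4 factors, which bind the cap and unwind the messenger, split evenly with 4 of 8 below 0, and 3 of 8 without replicate 8. Eif4e, the cap-binding protein, had 5.79, 6.02 and 5.74 in Hdh4/Q80 striata, against 5.50, 5.67 and 5.53 in wild type. All Hdh4/Q80 mice were above all wild-type mice, as for 2 of the 48 factor genes (Eif4e and Eif3e) and 5.87% of all genes. The difference was 0.28 (SE 0.0906, limma's adjusted p = 0.857), and 0.19 without replicate 8. Its second probe set had 5.41, 5.41 and 5.37 in Hdh4/Q80 mice and 5.37, 5.43 and 5.42 in wild type, a difference of -0.01 with and without that mouse, and the first carries a suffix for fewer specific probes.

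Eif4b, which stimulates the unwinding helicase, gave -0.01 on its brightest probe set, and 0.06 without replicate 8. A dimmer one, with a suffix for fewer specific probes, had 6.92, 6.95 and 7.04 in Hdh4/Q80 mice, against 6.78, 6.67 and 6.71 in wild type. There the groups did not overlap, and the difference was 0.25 (SE 0.0708, limma's adjusted p = 0.857), and 0.26 without that mouse. Of its 4 probe sets, the remaining ones gave -0.13 and 0.09 with overlapping groups, and 0.03 and 0.13 without that mouse. The helicases Eif4a1 and Eif4a2, the second of which is the form abundant in brain, had -0.06 and 0.04 (-0.04 and 0.07 without it). The cap-binding homologue Eif4e2 had 0.07 (0.02 without it), and the scaffold proteins Eif4g2 and Eif4g3 had -0.02 and -0.09 (both -0.04 without it). The 4E binding proteins, which keep eIF4E from its scaffold, had -0.02 (Eif4ebp1) and -0.08 (Eif4ebp2), and the importer of eIF4E into the nucleus, Eif4enif1, had 0.07. Without replicate 8 these 3 genes had -0.10, -0.03 and 0.13.

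The eIF2 branch brings the initiator tRNA and is the target of the stress kinases. Its subunits Eif2s2 and Eif2s3x had differences of 0.01 and 0.04, and -0.03 and 0.05 without replicate 8. Of eIF2B, which reloads eIF2 with GTP, 3 of 4 genes were below 0, with Eif2b5 at -0.12, Eif2b1 at -0.10, Eif2b2 at -0.09 and Eif2b4 at 0.03. Without replicate 8 they were at 0.05, -0.06, -0.01 and 0.09. Of the kinases, Eif2ak4, which senses uncharged tRNA, had 5.51, 5.40 and 5.50 in Hdh4/Q80 mice, against 5.27, 5.24 and 5.40 in wild type. The lowest Hdh4/Q80 mouse met the highest wild-type mouse, and the difference was 0.17 (SE 0.0743, limma's adjusted p = 0.857) and 0.20 without replicate 8. The haem-regulated Eif2ak1, the double-stranded RNA sensor Eif2ak2 and the endoplasmic reticulum kinase Eif2ak3 had 0.00, -0.01 and -0.06, and 0.05, -0.02 and -0.02 without it.

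The eIF3 complex, the scaffold on the small subunit, had 6 of 10 genes below 0 and a median of -0.01. Without replicate 8 it had 4 of 10 below 0 and a median of 0.03. Eif3e had 7.52, 7.46 and 7.60 in Hdh4/Q80 striata, against 7.41, 7.43 and 7.33 in wild type, with no overlap and a difference of 0.14 (0.17 without replicate 8). Its second probe set gave 0.03 (0.09 without it). Eif3c had 9.85, 9.67 and 9.83 in Hdh4/Q80 mice, against 9.97, 9.88 and 9.89 in wild type, again with no overlap, and a difference of -0.13 (-0.07 without replicate 8). Eif3c and Eif5b were the 2 of 48 factor genes with all Hdh4/Q80 mice below all wild-type mice, against 5.22% of all genes. Eif3l had a narrow range, at 9.45 to 9.50 in Hdh4/Q80 mice and 9.47 to 9.51 in wild type. The other subunits lay between -0.13 (Eif3b) and 0.13 (Eif3j1), which were -0.02 and 0.18 without replicate 8.

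The factors of the late steps gave the other call at an unadjusted p. Eif5b, the GTPase that joins the subunits, had 7.35, 7.29 and 7.24 in Hdh4/Q80 striata, against 7.46, 7.45 and 7.43 in wild type. No Hdh4/Q80 mouse reached the wild-type range. The difference was -0.15 (SE 0.0666, limma's adjusted p = 0.857), the same without replicate 8, while the second probe set gave 0.00 (-0.02 without that mouse). Eif5a, the factor modified with hypusine that helps the ribosome over difficult stretches, had 6.15, 6.24 and 6.33 in Hdh4/Q80 mice, against 6.17, 6.02 and 6.03 in wild type. The groups overlapped by 1 mouse of each, and the difference was 0.17 (SE 0.0777) with and without replicate 8. Eif5, which triggers GTP hydrolysis on eIF2, had 0.09, and Eif6, which keeps free large subunits from joining, had 0.04. Eif1a, which helps scanning, had -0.10. Without replicate 8 these 3 genes had 0.14, 0.14 and -0.11.

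**Figure D4:**
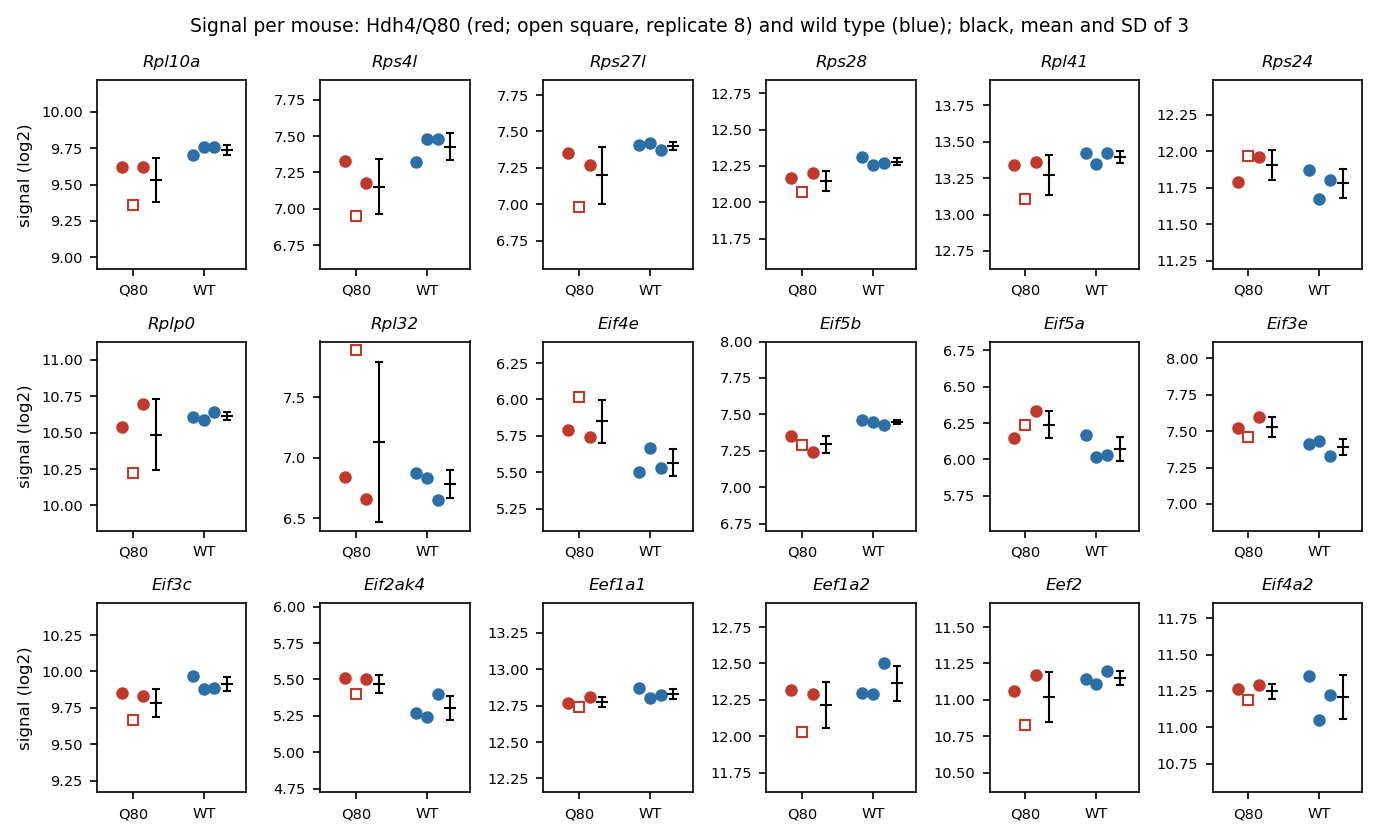
Log2 signal of each mouse (vertical axis) for 18 member genes, Hdh4/Q80 left in red and wild type right in blue, with the mean and SD of 3 mice in black; the open square is Hdh4/Q80 replicate 8. In Eif4e and Eif3e all Hdh4/Q80 mice lie above all wild-type mice, and in Rpl10a, Rps27l, Rps28, Eif5b and Eif3c all lie below.

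Of the elongation factors, 4 of 8 genes were below 0, and 5 of 8 without replicate 8. Eef1a1 and Eef1a2 deliver aminoacyl tRNA, and neurons switch to Eef1a2 as they mature. Eef1a2 had 12.32, 12.03 and 12.29 in Hdh4/Q80 striata, against 12.30, 12.29 and 12.50 in wild type. Replicate 8 was lowest and 1 wild-type mouse highest, with a difference of -0.15 that was -0.06 without replicate 8. Eef1a1 had 12.77, 12.74 and 12.81 in Hdh4/Q80 mice, against 12.87, 12.80 and 12.82 in wild type, a difference of -0.05 that was -0.04 without replicate 8 and turned to 0.03 under cyclic loess. The exchange factor subunits Eef1b2, Eef1d and Eef1g had 0.00, 0.13 and 0.04. Eef1g was very dim, with means of 3.36 in Hdh4/Q80 mice and 3.32 in wild type, at percentile 1.45 of all probe sets. Whether its probe set reads the messenger was not tested. For Eef1d replicate 8 was highest, with 9.12 against 8.81 and 8.73 in the other Hdh4/Q80 mice. Without it the 3 genes had 0.05, 0.01 and 0.13.

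Eef2, which moves the ribosome by 1 codon, had 11.06, 10.83 and 11.17 in Hdh4/Q80 striata, against 11.14, 11.11 and 11.20 in wild type. Replicate 8 was again lowest, and the difference of -0.13 was -0.04 without it. Its kinase Eef2k, which halts elongation, had 0.04, and 0.00 without it. Eef1akmt1 had 7.02, 6.52 and 7.13 in Hdh4/Q80 mice, against 7.12, 7.08 and 7.09 in wild type. Here too 1 mouse set the difference of -0.21, which was -0.02 without replicate 8.

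Members with several probe sets often gave both signs. Of 10 ribosomal protein genes with more than 1 probe set, 3 had the same sign on all (Rpl38, Rps24 and Rps28), and of 14 factor genes 7 did. A suffix for related transcripts or fewer specific probes was carried by 24 member probe sets, 15 of them for ribosomal proteins. Besides those marked above, these include the brightest probe sets of Eef1b2, Eif2b4, Eif4a1, Eif4b and Rps13. By probe set, limma marked 3 of 49 ribosomal protein probe sets and 3 of 65 factor probe sets at an unadjusted p under 0.05, against 5.10% of all probe sets. Of the ribosomal protein probe sets 2 were lower and 1 was higher, and of the factor probe sets 1 was lower and 2 were higher, where 2.21% of all probe sets were marked as lower and 2.90% as higher.

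Other genes of the pathway gave the same count of 0 past the adjusted threshold. The mitochondrial ribosome, a separate machine with its own proteins, had 49 of 61 genes below 0, a median of -0.07, and all Hdh4/Q80 mice below all wild-type mice for 11 genes, against 5.22% of all genes. At an unadjusted p under 0.05, limma marked 4 of its genes as lower, Mrps15 (-0.27), Mrpl13 (-0.22), Mrpl28 (-0.22) and Mrpl21 (-0.21), and none as higher, against 2.13% of all genes lower and 2.17% higher. Without replicate 8 its median was -0.02 with 39 of 61 below 0, and those 4 genes had -0.20, -0.13, -0.17 and -0.20. The aminoacyl tRNA synthetases, which charge tRNA, had 16 of 22 below 0 and a median of -0.07, which was 0.01 without replicate 8. Ribosome biogenesis genes had 21 of 30 below 0 and a median of -0.05, and 1 of them, the RNA polymerase subunit gene Polr1c, had an unadjusted p under 0.05 in limma and a difference of 0.54 that was 0.31 without replicate 8. Growth signalling genes had 9 of 13 below 0 with a median of -0.06. Genes of termination, poly(A) binding and the stress response had 11 of 17 below 0 with a median of -0.03. Without replicate 8 the medians of these 3 lists were -0.01, 0.01 and 0.00. All Hdh4/Q80 mice lay below all wild-type mice for 6 of 30, 1 of 13 and 0 of 17 of their genes. For the synthetases it was 1 of 22. For the 5 lists in the order given here, all Hdh4/Q80 mice lay above for 0, 2, 1, 1 and 1 genes, against 5.87% of all genes. The other genes of these lists with an unadjusted p under 0.05 in limma were Nars, which charges tRNA with asparagine (-0.21), Ddit4, a stress-induced inhibitor of mTOR (-0.22), and Pelo, which frees stalled ribosomes (0.24); they had -0.13, -0.13 and 0.12 without replicate 8.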

How the data were processed

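Total RNA from the striatum of 3 Hdh4/Q80 and 3 wild-type mice was labelled with biotin and hybridised to Affymetrix arrays, per the labels' protocols. The deposited values are log2 signals per probe set. The submitters' processing notes name RMA and the affy package as what the authors used; the sources used here give neither versions nor the arrays that RMA took together. RMA equalises probe intensities between arrays, so a change in the total amount of RNA is not seen. No scanner files or detection calls were used here.

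Of 12488 probe sets, 66 controls were left out. Names came from the platform annotation: 10833 probe sets had 1 symbol, 396 several and 1193 none, and all 83 member genes matched the RefSeq gene table (GRCm38.p6). Groups and replicate numbers came from the sample titles. The genotypes were compared in R 4.3.3 with limma 3.58.1 (lmFit, then eBayes without trend; residual degrees of freedom 4, prior 5.81). P-values were adjusted by Benjamini-Hochberg over 12422 probe sets, with a threshold of 0.05, and the fit was tested on simulated data. Tables were handled with pandas 2.3.3.

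The members, gene lists and tests were chosen with earlier results of these data known. The rule for named genes took the 5 genes of smallest p in each direction, the 3 brightest and 3 dimmest of each class, genes whose probe sets disagree at an unadjusted p under 0.05, and a panel of 68, of which 51 were measured; it named 66 of 83 genes. Rpl19, Rps18, Rps3a1 and Rps7 fall outside it and were chosen after their promoters were seen. The promoter words were also first counted by strand and near the start; the word shown and the promoters printed were chosen after that look.

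Alternatives were a filter on the dimmest 40% of probe sets, median centring (on all or on other probe sets), cyclic loess and quantile normalization. Others were moderation with trend and robust options, limma's array weights and averaged probe sets per gene. The last left out probe sets with suffixes for related transcripts or fewer specific probes, or each mouse in turn.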

Additional observations from a re-analysis of the deposited data

How the results depend on the processing

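Under none of the 15 alternatives did a member or any other probe set pass an adjusted p of 0.05; the lowest adjusted p of a named member was 0.135. The median over ribosomal protein genes, -0.087, stayed below 0 under all 15 and was -0.025 with array weights, which rest the Hdh4/Q80 side on replicate 7 (6.19, against 0.228 and 0.405 for replicates 8 and 9); with 1 mouse left out it lay between -0.112 and -0.015, the upper end being without Hdh4/Q80 replicate 8. The median over factor genes, -0.013, was 0.004 under cyclic loess and lay between -0.05 and 0.007 with 1 mouse left out. The number of ribosomal protein genes with an unadjusted p under 0.05, 2, was 4 with array weights, 0 where a gene's probe sets were averaged, and 0 to 4 with 1 mouse left out: 1 without wild-type replicate 4, 0 without wild-type replicate 5 or 6, and 4 without Hdh4/Q80 replicate 9. For factor genes the number, also 2, was 1 without the dimmest 40% of probe sets, 6 with array weights, and 1 to 4 with 1 mouse left out: 1 without wild-type replicate 5, and 4 without Hdh4/Q80 replicate 8 or 9. The cause was not tested.

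The sign of 14 of the 66 named members turned under alternatives other than leaving out a mouse, with differences between -0.06 and 0.21. Quantile normalization gave Eif2s2 -0.02, Eif3l 0.03, Eif4b 0.04 and Rps4x 0.03. Cyclic loess gave Eef1a1 0.03, Eif2s2 -0.02, Eif3l 0.03, Eif4b 0.04, Rps19 0.01 and Rps4x 0.04. Array weights gave Eif2b4 -0.01, Eif2s2 -0.06, Eif2s3x -0.05, Eif3a 0.03, Eif4b 0.09, Rpl39l -0.01, Rps27 0.02 and Rps4x 0.01. Averaging a gene's probe sets gave Eif2s2 -0.03, Eif4b 0.05, Rpl7 0.04 and Rps4x 0.04. Without probe sets with suffixes for related transcripts or fewer specific probes, Eif4e was -0.01, Rpl7 0.15 and Rps4l 0.21. Each was then measured by its remaining probe set.

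When 1 mouse was left out, the sign of 24 named members turned, read from differences to 2 decimals and counting no member whose difference over all mice is 0.00. Of those at 0.00, Eef1b2 lay between -0.04 and 0.05, Eif2ak1 between -0.05 and 0.05, and Rpl39 between -0.04 and 0.03. The ranges were -0.27 to 0.05 for Eif2b5, -0.17 to 0.07 for Eif3k, -0.08 to 0.06 for Eif3a, -0.03 to 0.05 for Eif3f, -0.06 to 0.06 for Eif4b, -0.03 to 0.06 for Eif2s2, -0.03 to 0.58 for Rpl32, -0.23 to 0.01 for Rplp0, -0.09 to 0.04 for Rps19 and -0.08 to 0.05 for Rps4x. They were -0.1 to 0.06 for Eif4g2, -0.08 to 0.01 for Rpl13a, -0.06 to 0.07 for Eif2ak2, -0.06 to 0.09 for Eif3m, -0.04 to 0.11 for Eif4a2, -0.01 to 0.05 for Rps20, -0.01 to 0.13 for Eef1g, -0.05 to 0.09 for Eif2b4, -0.02 to 0.1 for Eif2s3x, -0.1 to 0.07 for Eif4ebp1, -0.01 to 0.16 for Eif5, -0.02 to 0.14 for Eif6, -0.04 to 0.19 for Rps15 and -0.06 to 0.01 for Rps27.

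No paired analysis was possible because the groups share no replicate numbers. The arrays show the spread between 3 mice a group, and no detection calls were used, so no dim member is called absent.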
